A study of Mus musculus with 9 samples.

Results

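The brush border assembly genes are 10 genes whose products build or hold together the microvilli of intestinal epithelial cells: Cdhr2, Cdhr5, Ush1c, Myo7b, Myo1a, Vil1, Espn, Ezr, Eps8 and Mall. They were taken by symbol from a table of 24421 gene symbols, all 10 were found, and all 10 passed the filter on low values (at least 1 TPM, a length-corrected share of each library's transcripts, in at least 3 libraries) that left 12888 genes for testing. They were measured by RNA sequencing in 3 sorted populations of the colon epithelium of adult female C57BL/6J mice, with 3 libraries each and no treatment. The enterocyte-enriched population, from the crypt top, carried Epcam and high Cd66a and lacked Cd44. The other populations were positive for both Epcam and Cd44 and were divided by Kit: Kit-positive cells made up the goblet-enriched population and Kit-negative cells the Lgr5-enriched population. A sort by these antigens enriches for a cell type and does not isolate it. Dead cells, doublets and cells bearing antigens of leukocytes or endothelium had been gated out.

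A brush border is an ordered field of microvilli on the apical face of an absorptive cell. Bundled actin filaments form the core of each microvillus, class I myosin and ezrin tie that core to the membrane, and protocadherins at the tips link neighbouring microvilli so that they pack at even height. The tip link complex of protocadherins, the scaffold harmonin and myosin 7b is related to the complex that ties the stereocilia of inner ear hair cells. In the colon, microvilli are most developed on the absorptive colonocytes of the crypt top.

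Depth, recovered from the values as a lower bound, was 11.2 to 26.8 M reads assigned to genes. For a gene 1 kb long, each read added 0.0958 to 0.208 TPM, and the 3 reads that a count of 0 allows came to 0.287 to 0.624 TPM, for counting error only. The labels were checked against marker lists. The summed level of 9 colonocyte markers was 3481 to 7583 TPM in enterocyte-enriched libraries, 33.9 to 224 TPM in goblet-enriched libraries and 214 to 339 TPM in Lgr5-enriched libraries, with no marker at 0 in any library. The sum of 9 goblet markers was 14529 to 22782 TPM in enterocyte-enriched, 45634 to 62390 TPM in goblet-enriched and 1502 to 1666 TPM in Lgr5-enriched libraries, with no marker at 0 in any library. Among these goblet markers 2 were called higher and 5 lower in enterocyte-enriched than in goblet-enriched cells, against 15.9% and 28.2% of all tested genes. All 9 were called higher in enterocyte-enriched than in Lgr5-enriched cells, against 12% of all tested genes. All 9 were also higher in goblet-enriched than in Lgr5-enriched cells, against 10.7%. The sum of 9 stem cell markers was 167 to 308 TPM in enterocyte-enriched, 747 to 849 TPM in goblet-enriched and 1400 to 1555 TPM in Lgr5-enriched libraries. The sum of 8 leukocyte markers was 20.0 to 250.1 TPM in enterocyte-enriched, 12.5 to 24.8 TPM in goblet-enriched and 13.9 to 25.2 TPM in Lgr5-enriched libraries, and its part in the results was not tested. The sum of 7 tuft cell markers was 2.78 to 5.70 TPM in enterocyte-enriched, 7.94 to 49.5 TPM in goblet-enriched and 1.93 to 4.66 TPM in Lgr5-enriched libraries, with 1 to 5 of them at 0 per library. Of the 3 tested, 2 were called higher in goblet-enriched than in enterocyte-enriched cells, against 28.2% of all tested genes. Against Lgr5-enriched cells 2 of the 3 were higher in goblet-enriched cells, where 10.7% of all tested genes were. The sum of 9 enteroendocrine markers was 154 to 244 TPM in enterocyte-enriched, 23.8 to 101.5 TPM in goblet-enriched and 159 to 300.3 TPM in Lgr5-enriched libraries. Of these 9, 4 were higher and 2 lower in enterocyte-enriched than in goblet-enriched cells, against 15.9% and 28.2% of all tested genes. In goblet-enriched against Lgr5-enriched cells 2 were higher and 3 lower, against 10.7% and 23.6%. Enterocyte-enriched replicate 1 went against its female label: Xist stood at 0.13 TPM there and at 110.3 to 204 TPM in the other 8 libraries, and 4 Y-linked genes summed to 139 TPM against at most 0.32 TPM elsewhere. Lgr5-enriched replicate 1, the deepest library, held 49046 TPM of the ribosomal precursor Rn45s, against 2356 to 6009 TPM in the other 8. Replicate 1 was the highest or the lowest library of its population for all 10 brush border genes in each of the 3 populations. It was the highest for 9 and the lowest for 1 in enterocyte-enriched, the highest for 2 and the lowest for 8 in goblet-enriched, and the highest for 1 and the lowest for 9 in Lgr5-enriched cells. Over all tested genes, replicate 1 was highest for 29.5% and lowest for 49.2% in enterocyte-enriched, highest for 37.9% and lowest for 45.6% in goblet-enriched, and highest for 30.2% and lowest for 52.0% in Lgr5-enriched cells.

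Enterocyte-enriched cells held more brush border transcripts than either other population. The 10 genes summed to 4003 ± 619 TPM in enterocyte-enriched cells, 1724 ± 101 TPM in goblet-enriched cells and 1753 ± 347 TPM in Lgr5-enriched cells (SD, n = 3 each), with no enterocyte-enriched library below 3501 TPM and no other library above 2054 TPM. Against Lgr5-enriched cells 8 of the 10 were higher and 0 were lower by limma at an adjusted p below 0.05, and Myo7b and Eps8 were not called. Over all tested genes, 12% were higher and 49.6% were called in either direction in that comparison. The median log2 fold change was 1.11 over the 10 genes and -0.35 over all tested genes. Against goblet-enriched cells 7 of the 10 were higher and 0 lower, where 15.9% of all tested genes were higher and 44.1% were called in either direction, and the medians were 1.31 over the 10 genes and -0.20 over all. Between goblet-enriched and Lgr5-enriched cells 0 were higher and 1, Mall, was lower, where 10.7% of all tested genes were higher, 23.6% were lower and 34.3% were called in either direction; the medians were -0.15 and -0.26. Each pair of these comparisons shares the libraries of a population, so the counts are not independent of each other. Counted by ranges that did not overlap, 8 of the 10 lay higher in enterocyte-enriched than in Lgr5-enriched libraries, against 16.2% of all tested genes, and 0 lay lower, against 45.6%. From goblet-enriched libraries 9 lay higher in enterocyte-enriched libraries, against 20.4%, and 0 lay lower, against 36%. In goblet-enriched against Lgr5-enriched libraries 0 lay higher, against 14.1%, and Mall lay lower, against 33.9%. In bulk RNA a smaller share of cells that express a gene and less RNA of it per cell cannot be told apart. The colonocyte, goblet, tuft and enteroendocrine marker sums given above differed between the populations too, and their part in these differences was not tested.

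The scale of the values bears on these counts. TPM set the median tested gene at -0.35, -0.20 and -0.26 on the log2 scale in enterocyte-enriched against Lgr5-enriched, enterocyte-enriched against goblet-enriched and goblet-enriched against Lgr5-enriched cells. Median-of-ratios scaling set it at 0.01, -0.04 and -0.05. All genes split into 1549 higher and 4847 lower in enterocyte-enriched against Lgr5-enriched cells on TPM, and into 2962 higher and 2568 lower after median-of-ratios scaling or 2424 and 2887 after quantile normalization. Against goblet-enriched cells the split was 2054 higher and 3633 lower on TPM, 2705 and 2621 after median-of-ratios scaling and 2379 and 2890 after quantile normalization. In goblet-enriched against Lgr5-enriched cells it was 1384 higher and 3039 lower on TPM, 1843 and 1555 after median-of-ratios scaling and 1883 and 1941 after quantile normalization. The brush border genes called in the 3 comparisons numbered 8, 9 and 1 after median-of-ratios scaling and 7, 7 and 1 after quantile normalization. Without enterocyte-enriched replicate 1, the library that went against its label, 6 of the 10 genes were called higher against Lgr5-enriched cells and 7 against goblet-enriched cells. Of all 12782 genes tested without that library, 1196 and 1686 were higher in these comparisons. Without Lgr5-enriched replicate 1, 6 and 8 of the 10 were called higher in the same comparisons, against 1231 and 2182 of all 12776 genes tested then. In goblet-enriched against Lgr5-enriched cells 3 of the 10 were called lower without Lgr5-enriched replicate 1, against 2823 of the 12776.

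**Figure D1:**
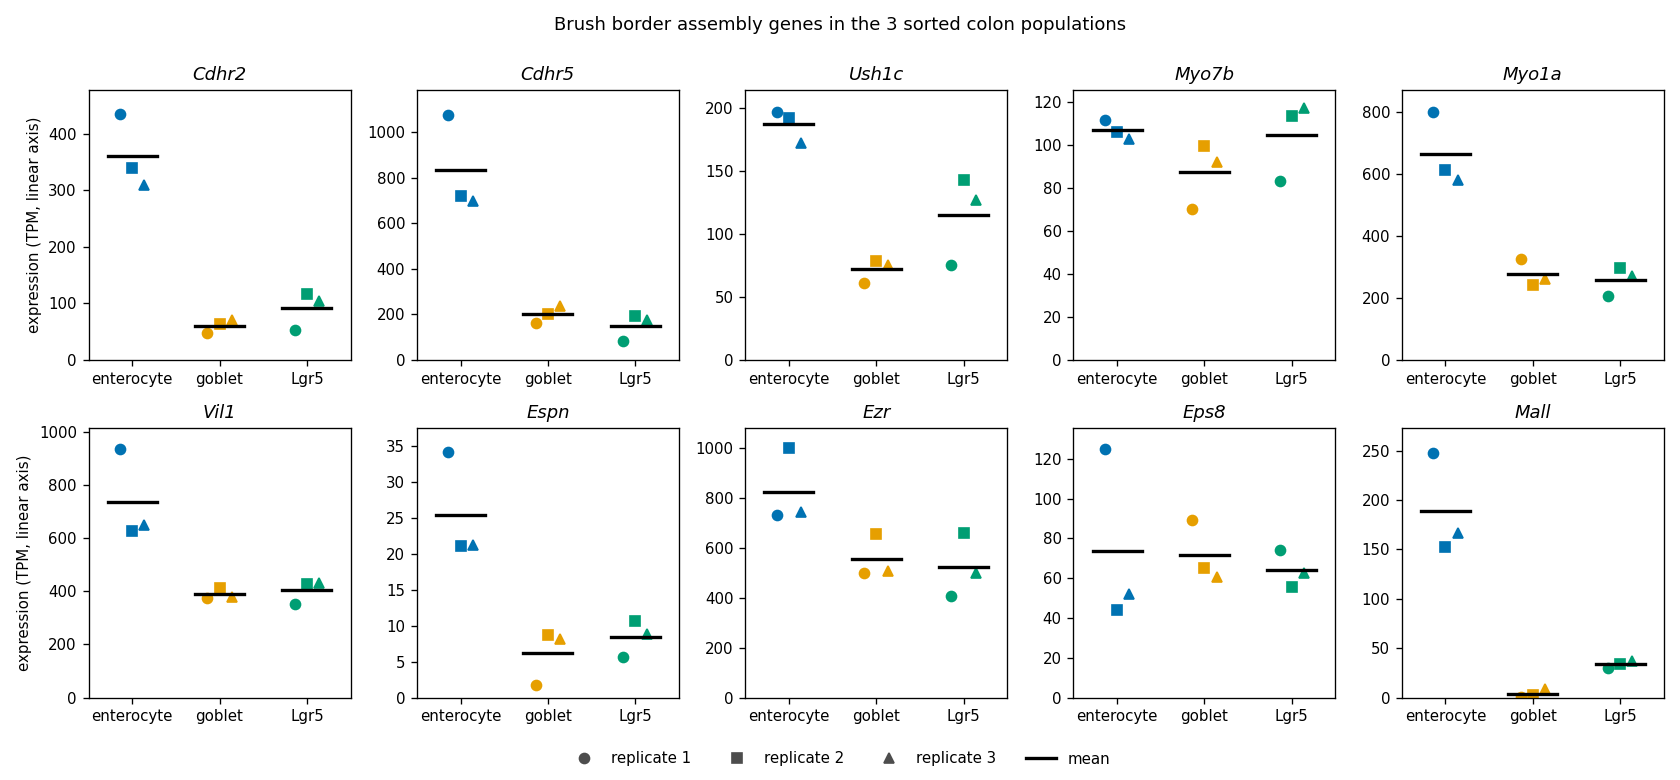
Expression of the 10 brush border assembly genes in TPM (linear y axes from 0, each gene on its own scale) in the 3 libraries of each population, with symbols for the replicate number and a bar at the mean. For 8 genes every enterocyte-enriched library lies above every Lgr5-enriched library, while Myo7b and Eps8 overlap, and Mall is at most 9.05 TPM in goblet-enriched libraries.

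The proximal promoters found for the brush border genes, all but Myo7b and Eps8, differed in their number of CpG dinucleotides. RefSeq windows (GRCm38.p6, the build named for these data) were found for 8 of the 10 genes, as 10 windows of 300 bases because Espn has 3, and the 250 bases before each start are shown 5′ to 3′ on the gene's strand for 4 genes. Cdhr2 and Cdhr5 encode the partner protocadherins, Ush1c their scaffold, and Ezr is the gene with the most CpG; capitals mark each CpG dinucleotide, the site of DNA methylation. The windows are chr13:54701213-54701462 (plus strand) for Cdhr2, chr7:141276787-141277036 (minus strand) for Cdhr5, chr7:46238491-46238740 (minus strand) for Ush1c and chr17:6782781-6783030 (minus strand) for Ezr.
Cdhr2: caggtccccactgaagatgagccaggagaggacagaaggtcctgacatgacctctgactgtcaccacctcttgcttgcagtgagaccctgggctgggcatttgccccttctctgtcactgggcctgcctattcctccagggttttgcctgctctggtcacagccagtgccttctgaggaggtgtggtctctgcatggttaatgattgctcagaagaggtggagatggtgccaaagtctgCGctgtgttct
Cdhr5: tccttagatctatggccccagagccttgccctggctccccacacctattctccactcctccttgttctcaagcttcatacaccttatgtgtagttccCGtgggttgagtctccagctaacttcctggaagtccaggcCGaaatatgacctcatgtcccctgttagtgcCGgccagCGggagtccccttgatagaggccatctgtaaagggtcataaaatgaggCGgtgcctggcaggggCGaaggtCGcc
Ush1c: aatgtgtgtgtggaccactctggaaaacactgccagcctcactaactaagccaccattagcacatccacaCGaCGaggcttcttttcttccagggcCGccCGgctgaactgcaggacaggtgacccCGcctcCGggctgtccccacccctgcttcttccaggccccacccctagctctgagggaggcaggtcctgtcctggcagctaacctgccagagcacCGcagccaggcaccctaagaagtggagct
Ezr: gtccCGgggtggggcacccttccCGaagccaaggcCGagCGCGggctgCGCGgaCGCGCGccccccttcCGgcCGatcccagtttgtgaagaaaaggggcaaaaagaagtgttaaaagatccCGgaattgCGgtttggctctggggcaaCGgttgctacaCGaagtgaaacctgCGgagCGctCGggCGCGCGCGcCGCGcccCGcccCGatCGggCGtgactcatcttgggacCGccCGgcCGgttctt
Cdhr2 holds 1 CpG in these 250 bases, as does Myo1a, whereas Cdhr5 and Ush1c hold 7 each, Vil1 5 and Mall 11. Ezr holds 32, and 95.4% of the 32851 windows of all genes hold fewer; the median window holds 6. The 3 Espn windows hold 11, 1 and 3. Short motifs of factors known from intestinal genes were searched for on both strands of the 300 bases. The HNF4 motif CAAAGTCCA was in 0 of the 10 windows and in 0.475% of all windows. The GATA motifs TGATAA and AGATAA were each in 0 of 10 and in 9.05% and 11.2% of all windows. The TATA motif TATAAA was in 0 of 10 and in 13.6% of all windows, and the CDX motif TTTATNG was in 1 of 10, an Espn window, and in 10.9% of all windows. These counts describe the letters of the windows and no binding.

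The tip link genes divided into those that were higher in enterocyte-enriched cells and a motor that was not called. Cdhr2 (chr13:54701461-54736662) and Cdhr5 (mucin-like protocadherin; chr7:141269083-141276786) encode the partner cadherins whose heads bind each other between microvilli. Cdhr2 had 434, 339.9 and 309 TPM in enterocyte-enriched replicates 1 to 3, 47.8, 63.2 and 71.0 TPM in goblet-enriched replicates, and 53.9, 118 and 104 TPM in Lgr5-enriched replicates. Every enterocyte-enriched library lay above every other library, and goblet-enriched and Lgr5-enriched libraries overlapped. The log2 fold change was 2.02 (SE 0.28, limma adjusted p = 0.000595) against Lgr5-enriched cells and 2.56 (SE 0.28, limma adjusted p = 0.000177) against goblet-enriched cells. Cdhr5 had 1076, 720.5 and 699 TPM in enterocyte-enriched, 162, 203 and 236 TPM in goblet-enriched and 84.1, 194 and 175 TPM in Lgr5-enriched replicates. Again no enterocyte-enriched library overlapped another population. Its log2 fold change was 2.51 (SE 0.31, limma adjusted p = 0.000375) against Lgr5-enriched cells and 2.04 (SE 0.31, limma adjusted p = 0.000988) against goblet-enriched cells. Between goblet-enriched and Lgr5-enriched cells the estimates had opposite signs, -0.53 (95% confidence interval -1.18 to 0.11, limma adjusted p = 0.173) for Cdhr2 and 0.48 (-0.23 to 1.18, limma adjusted p = 0.266) for Cdhr5, and neither was called. Without Lgr5-enriched replicate 1 the Cdhr2 difference was -0.88 (limma adjusted p = 0.0146).

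Ush1c (chr7:46195350-46238503) encodes harmonin, the PDZ scaffold under the protocadherin tails. It had 197, 192 and 172 TPM in enterocyte-enriched, 61.4, 78.8 and 75.6 TPM in goblet-enriched and 74.9, 143 and 127 TPM in Lgr5-enriched replicates. Enterocyte-enriched libraries were above all others, and the goblet-enriched range overlapped the Lgr5-enriched range through Lgr5-enriched replicate 1 alone. The log2 fold change was 0.75 (SE 0.22, limma adjusted p = 0.0206) against Lgr5-enriched cells and 1.37 (SE 0.22, limma adjusted p = 0.00133) against goblet-enriched cells. The call against Lgr5-enriched cells ended without enterocyte-enriched replicate 1 (0.71, limma adjusted p = 0.0591) or replicate 2 (0.73, limma adjusted p = 0.0547). Goblet-enriched against Lgr5-enriched cells gave -0.62 (95% confidence interval -1.13 to -0.12, limma adjusted p = 0.0568). That difference was called with the replicate number as a block (limma adjusted p = 0.0253) and without Lgr5-enriched replicate 1 (-0.90, limma adjusted p = 0.0034).

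Myo7b encodes the myosin that carries the tip link complex to microvillar tips. It had 112, 106 and 103 TPM in enterocyte-enriched, 70.0, 99.6 and 92.0 TPM in goblet-enriched and 83.2, 113 and 117 TPM in Lgr5-enriched replicates. The enterocyte-enriched values lay inside the Lgr5-enriched range. The log2 fold change was 0.05 against Lgr5-enriched cells (95% confidence interval -0.34 to 0.43, limma adjusted p = 0.843), an interval that leaves out a fold as large as that of Cdhr2 or Cdhr5. Against goblet-enriched cells all 3 enterocyte-enriched values were higher but the difference was 0.30 (-0.08 to 0.69, limma adjusted p = 0.179). After median-of-ratios scaling that difference was 0.48 (limma adjusted p = 0.039). The difference of goblet-enriched from Lgr5-enriched cells was -0.26 (-0.65 to 0.13, limma adjusted p = 0.27). That difference was called with array weights (-0.27, limma adjusted p = 0.0382) and with replicates 2 and 3 alone (-0.26, limma adjusted p = 0.0422).

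The remaining partners of the complex followed the protocadherins in direction. Anks4b, a scaffold that binds harmonin and myosin 7b, had 138, 118 and 104 TPM in enterocyte-enriched, 41.5, 42.5 and 42.2 TPM in goblet-enriched and 45.1, 52.5 and 50.4 TPM in Lgr5-enriched replicates. It was higher in enterocyte-enriched cells by 1.26 against Lgr5-enriched (limma adjusted p = 0.000206) and by 1.48 against goblet-enriched cells (limma adjusted p = 6.33e-05), in log2. Calml4, a light chain of myosin 7b, had 364, 308 and 338 TPM in enterocyte-enriched, 210.0, 177 and 192 TPM in goblet-enriched and 193, 261 and 246 TPM in Lgr5-enriched replicates. Its log2 fold changes were 0.54 (limma adjusted p = 0.0124) against Lgr5-enriched and 0.80 (limma adjusted p = 0.00215) against goblet-enriched cells.

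For 3 ratios among the tip link transcripts, ranges did not overlap between populations in 8 of 9 comparisons. TPM values of different genes are per transcript length and can be set against each other within a library. The ratio of Cdhr5 to Cdhr2 was 2.48, 2.12 and 2.26 in enterocyte-enriched, 3.38, 3.21 and 3.33 in goblet-enriched and 1.56, 1.65 and 1.68 in Lgr5-enriched replicates, so that no population overlapped another. The ratio of Cdhr2 to Ush1c was 2.21, 1.77 and 1.80 in enterocyte-enriched libraries, above every other library, against 0.779, 0.802 and 0.939 in goblet-enriched and 0.720, 0.823 and 0.821 in Lgr5-enriched libraries, which overlapped. The ratio of Myo7b to Ush1c was 0.568, 0.551 and 0.597 in enterocyte-enriched, 1.14, 1.26 and 1.22 in goblet-enriched and 1.11, 0.795 and 0.923 in Lgr5-enriched replicates. An exact two-sided permutation test of the log ratios over libraries gave p = 0.1 for 8 of the 9 comparisons (adjusted p = 0.1125), the smallest p that 3 libraries against 3 can give, and p = 0.6 for Cdhr2 to Ush1c in goblet-enriched against Lgr5-enriched cells. These ratios were chosen after their values were seen. The ratio of Ush1c to Anks4b was not tested. It was 1.43, 1.63 and 1.65 in enterocyte-enriched, 1.48, 1.86 and 1.79 in goblet-enriched and 1.66, 2.72 and 2.52 in Lgr5-enriched replicates. For that ratio the goblet-enriched range overlapped both others. The share of all gene pairs whose ratios do not overlap was not counted.

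**Figure D2:**
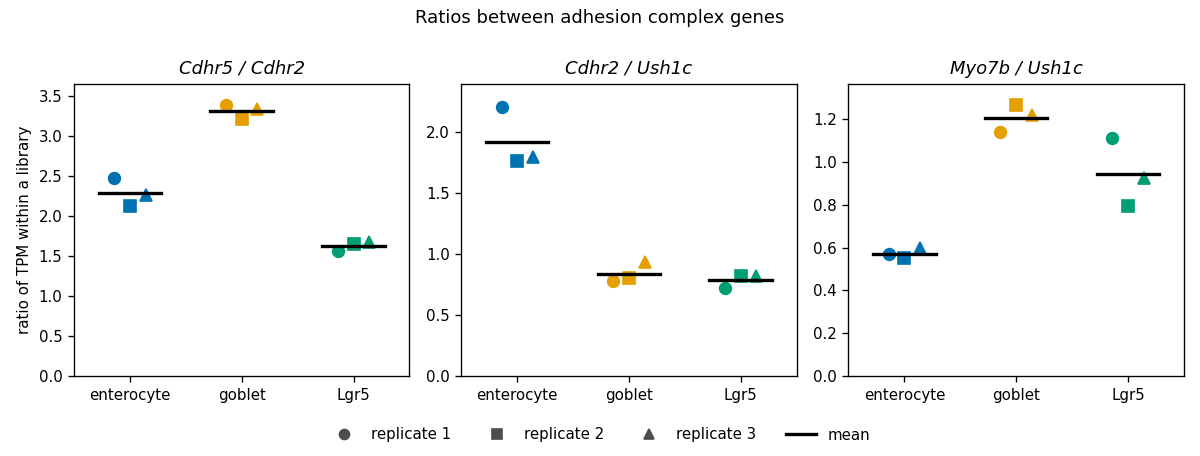
Ratios of TPM between tip link genes within each library (y axes from 0), by population, with symbols for the replicate number and a bar at the mean. The ratio of Cdhr5 to Cdhr2 separates all 3 populations, at 2.12 or more in enterocyte-enriched, 3.21 or more in goblet-enriched and 1.68 or less in Lgr5-enriched libraries.

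The actin core genes did not share a pattern. Vil1 (villin; chr1:74409376-74435559) encodes an actin bundling and severing protein of the microvillar core. It had 939, 627 and 651 TPM in enterocyte-enriched, 375, 414 and 381 TPM in goblet-enriched and 354, 427 and 431 TPM in Lgr5-enriched replicates. It was higher in enterocyte-enriched cells by 0.85 in log2 against Lgr5-enriched (SE 0.17, limma adjusted p = 0.00326) and by 0.90 against goblet-enriched cells (SE 0.17, limma adjusted p = 0.00296), with no overlap of ranges. Goblet-enriched and Lgr5-enriched cells differed by -0.05 (95% confidence interval -0.43 to 0.34, limma adjusted p = 0.853). Exons of Vil1 overlap Usp37 on the opposite strand, which reached at most 21.4 TPM. Exons of Ezr likewise overlap Sytl3, at most 1.43 TPM, and those of Ush1c overlap Gm9860. Whether counting used strand is not given in the sources used here, so reads of these overlaps cannot be assigned with certainty.

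Espn (espin; chr4:152120331-152152371), an actin bundling protein also known from hair cell stereocilia, was the lowest of the 10 in enterocyte-enriched cells. It had 34.1, 21.0 and 21.2 TPM in enterocyte-enriched, 1.67, 8.68 and 8.13 TPM in goblet-enriched and 5.67, 10.6 and 8.86 TPM in Lgr5-enriched replicates. Behind these values stood at least 515, 456 and 382 reads in enterocyte-enriched, 30, 144 and 132 reads in goblet-enriched and 186, 162 and 157 reads in Lgr5-enriched libraries. Espn was higher by 1.50 in log2 (SE 0.47, limma adjusted p = 0.026) against Lgr5-enriched and 2.06 (SE 0.47, limma adjusted p = 0.00729) against goblet-enriched cells. The call against Lgr5-enriched cells ended without enterocyte-enriched replicate 1 (1.27, limma adjusted p = 0.0884), Lgr5-enriched replicate 1 (1.27, limma adjusted p = 0.0795) or Lgr5-enriched replicate 3 (1.55, limma adjusted p = 0.0568). The fold against goblet-enriched cells was 1.46 in log2 without goblet-enriched replicate 1 (limma adjusted p = 0.00627).

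Eps8 (chr6:137477245-137654876) encodes an actin capping and bundling protein of microvillar tips. It had 125, 43.8 and 51.8 TPM in enterocyte-enriched, 89.2, 65.1 and 60.5 TPM in goblet-enriched and 74.1, 55.8 and 62.5 TPM in Lgr5-enriched replicates. Replicate 1 was the highest of each population, and all populations overlapped. Its log2 fold change was 0.05 against Lgr5-enriched (95% confidence interval -0.74 to 0.83, limma adjusted p = 0.923), -0.10 against goblet-enriched (-0.88 to 0.68, limma adjusted p = 0.836) and 0.15 in goblet-enriched against Lgr5-enriched cells (-0.64 to 0.93, limma adjusted p = 0.773). With replicates 2 and 3 alone its sign turned against Lgr5-enriched cells (-0.30, limma adjusted p = 0.0739), while against goblet-enriched cells it kept its sign and was called lower (-0.39, limma adjusted p = 0.0398). The goblet-enriched comparison turned to 0.080 after median-of-ratios scaling, to 0.19 without enterocyte-enriched replicate 2 and to 0.07 without enterocyte-enriched replicate 3 or goblet-enriched replicate 1, with no call.

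The genes that tie the core to the membrane were higher in enterocyte-enriched cells by unequal amounts. Myo1a (chr10:127705170-127720940) encodes the class I myosin that forms lateral bridges from the actin core to the membrane. It had 798, 611 and 581 TPM in enterocyte-enriched, 325, 243 and 263 TPM in goblet-enriched and 208, 297 and 269.6 TPM in Lgr5-enriched replicates. Its log2 fold change was 1.36 (SE 0.19, limma adjusted p = 0.000532) against Lgr5-enriched and 1.26 (SE 0.19, limma adjusted p = 0.000808) against goblet-enriched cells, with no overlap. Between goblet-enriched and Lgr5-enriched cells the estimate was 0.11 (95% confidence interval -0.31 to 0.53, limma adjusted p = 0.69).

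Ezr (ezrin; chr17:6738041-6782784) links membrane proteins to actin and was among the most abundant of the 10 in every population. It had 732, 1001 and 746 TPM in enterocyte-enriched, 502, 656 and 509 TPM in goblet-enriched and 406, 663 and 501 TPM in Lgr5-enriched replicates. The enterocyte-enriched libraries lay above all others, and the other populations overlapped. Ratios between libraries of the same replicate number were 1.80, 1.51 and 1.49 for enterocyte-enriched over Lgr5-enriched and 1.46, 1.53 and 1.47 for enterocyte-enriched over goblet-enriched cells. Ezr differed by 0.67 in log2 (SE 0.21, limma adjusted p = 0.0254) against Lgr5-enriched and 0.57 (SE 0.21, limma adjusted p = 0.0533) against goblet-enriched cells, the second of which was not called. With the replicate number as a block both were called, with limma adjusted p = 0.00114 and 0.00278. Without the block, the call against Lgr5-enriched cells ended under quantile normalization (limma adjusted p = 0.0837), with replicates 2 and 3 alone (0.0591), and without enterocyte-enriched replicate 2 (0.089), Lgr5-enriched replicate 1 (0.0787) or Lgr5-enriched replicate 3 (0.0722). The difference from goblet-enriched cells was called without goblet-enriched replicate 2 (0.0479), Lgr5-enriched replicate 1 (0.0364) or Lgr5-enriched replicate 2 (0.0371), and after median-of-ratios scaling (0.0141).

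Mall (chr2:127704386-127729932), a proteolipid of the MAL family found in membrane rafts, set goblet-enriched cells apart from both other populations. It had 248, 152 and 167 TPM in enterocyte-enriched, 0.18, 2.41 and 9.05 TPM in goblet-enriched and 30.0, 33.6 and 37.3 TPM in Lgr5-enriched replicates. At least 2, 25 and 92 reads stood behind the goblet-enriched values, against at least 616, 320 and 414 in Lgr5-enriched libraries. No population overlapped another. Its log2 fold change was 2.43 (SE 0.62, limma adjusted p = 0.0101) in enterocyte-enriched against Lgr5-enriched, 5.76 (SE 0.62, limma adjusted p = 0.00015) in enterocyte-enriched against goblet-enriched and -3.33 (SE 0.62, limma adjusted p = 0.00385) in goblet-enriched against Lgr5-enriched cells. In goblet-enriched replicates 1 to 3 the 9 colonocyte markers summed to 33.9, 69.9 and 224 TPM, in the same order as Mall. The tuft markers (7.94, 16.7 and 49.5 TPM) and the enteroendocrine markers (23.8, 59.8 and 101.5 TPM) had that order too. The sums of the goblet, stem cell and leukocyte markers did not. As means of log2(TPM + 1), goblet markers (10.7, 11.0 and 11.3) and leukocyte markers (0.704, 1.20 and 1.22) had that order as well. Stem cell markers (4.71, 5.50 and 5.39) did not by that measure either. The part of any of these in the level of Mall was not tested. Folds with goblet-enriched cells moved with the library left out: against Lgr5-enriched cells the value was -2.56 without goblet-enriched replicate 1 and -4.11 without replicate 3, and enterocyte-enriched against goblet-enriched cells gave 4.99 and 6.53 without the same libraries. The call against Lgr5-enriched cells ended with a pseudocount of 0.1 in place of 1 (2.46, limma adjusted p = 0.0674).

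**Figure D3:**
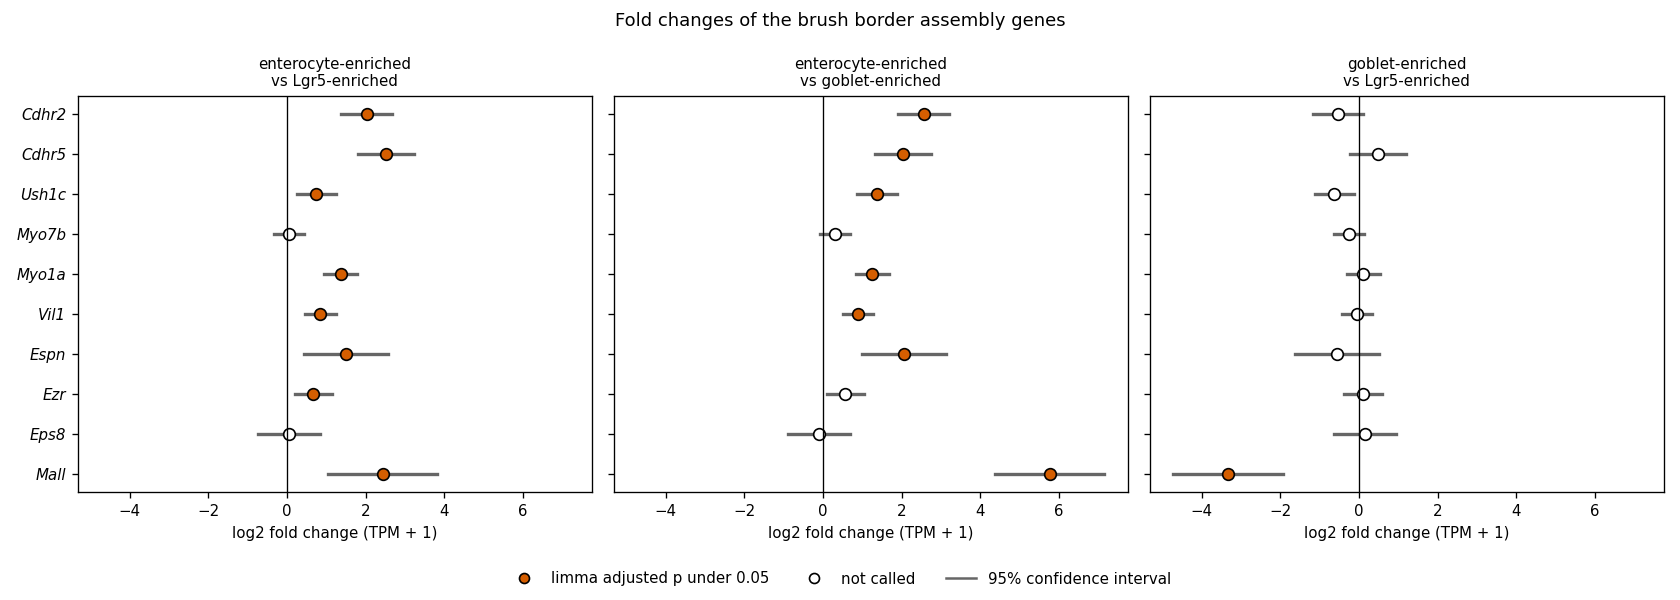
Log2 fold changes on the log2(TPM + 1) scale (x axes) of the 10 genes in the 3 comparisons, with 95% confidence intervals from limma; filled points have an adjusted p below 0.05. The intervals of Myo7b (-0.34 to 0.43) and Eps8 (-0.74 to 0.83) span 0 in enterocyte-enriched against Lgr5-enriched cells, and Mall (-3.33) is the filled point in goblet-enriched against Lgr5-enriched cells.

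The order of the 10 genes by TPM differed between populations. In enterocyte-enriched cells Cdhr5 (832 ± 212 TPM), Ezr (827 ± 151), Vil1 (739 ± 174) and Myo1a (663 ± 117) led, and each overlapped the next in order. They were followed by Cdhr2 (361 ± 65.2), Mall (189 ± 51.3), Ush1c (187 ± 13.0), Myo7b (107 ± 4.58), Eps8 (73.6 ± 44.8) and Espn (25.4 ± 7.50), of which Mall overlapped Ush1c and Myo7b overlapped Eps8 (SD, n = 3). In goblet-enriched cells the order was Ezr (556 ± 87.0), Vil1 (389.9 ± 21.3), Myo1a (277 ± 42.8), Cdhr5 (200.3 ± 37.4), Myo7b (87.2 ± 15.4), Ush1c (71.9 ± 9.28), Eps8 (71.6 ± 15.4), Cdhr2 (60.6 ± 11.8), Espn (6.16 ± 3.89) and Mall (3.88 ± 4.62). There Myo7b, Ush1c, Eps8 and Cdhr2 each overlapped the next in order, as did Espn and Mall. In Lgr5-enriched cells it was Ezr (523 ± 129.6), Vil1 (404 ± 43.5), Myo1a (258 ± 45.6), Cdhr5 (151 ± 58.8), Ush1c (115 ± 35.4), Myo7b (105 ± 18.6), Cdhr2 (91.8 ± 33.5), Eps8 (64.1 ± 9.29), Mall (33.6 ± 3.68) and Espn (8.39 ± 2.52). Ezr overlapped Vil1 there, and the genes from Cdhr5 to Eps8 each overlapped the next. The lead of Cdhr5 in enterocyte-enriched cells rested on replicate 1, the library that went against its sex label: Cdhr5 had 1076 and Ezr 732 TPM there, while in replicates 2 and 3 Ezr (1001 and 746 TPM) stood above Cdhr5 (720.5 and 699 TPM). Cdhr5 was at rank 4 by mean in both other populations, and it held 18.9 to 22.9% of the summed TPM of the 10 genes in enterocyte-enriched, 9.91 to 13.9% in goblet-enriched and 6.13 to 9.53% in Lgr5-enriched libraries.

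Paralogs were measured to see which member of each protein family the populations express. Ezr made up 91.1 ± 1.33% of the summed TPM of Ezr, Msn, Rdx and Nf2 in enterocyte-enriched, 87.3 ± 1.45% in goblet-enriched and 84.7 ± 2.23% in Lgr5-enriched cells, and Msn (moesin) was at most 1.68 TPM in any library. Myo7b made up 94.6 ± 0.80% of class VII myosin transcripts in enterocyte-enriched, 97.0 ± 0.41% in goblet-enriched and 96.5 ± 0.55% in Lgr5-enriched cells; Myo7a, the hair cell member, was at 2.51 to 7.07 TPM. Myo1a made up 63.2 ± 1.09% of class I myosin transcripts in enterocyte-enriched cells, above all other libraries, against 46.0 ± 4.68% in goblet-enriched and 45.7 ± 2.10% in Lgr5-enriched cells. Myo1d was higher in enterocyte-enriched than in Lgr5-enriched cells (0.80, limma adjusted p = 0.00419). Among the cadherin-related genes Cdhr3 was listed at 0 in all libraries. Cdhr1 was at 8.02, 5.62 and 6.44 TPM in enterocyte-enriched, 0.326, 0.616 and 0.899 TPM in goblet-enriched and 1.65, 4.98 and 3.42 TPM in Lgr5-enriched replicates. Espnl, the paralog of Espn, was at most 0.0711 TPM.

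The villin and gelsolin family differed in a way that villin alone does not show. Gsn (gelsolin), an actin severing protein, had 361, 289.7 and 284 TPM in enterocyte-enriched, 108, 212 and 206 TPM in goblet-enriched and 13.0, 47.0 and 35.0 TPM in Lgr5-enriched replicates. Scin (scinderin), a related severing protein, had 166, 152 and 134 TPM in enterocyte-enriched, 79.3, 135 and 119 TPM in goblet-enriched and 5.78, 17.8 and 12.0 TPM in Lgr5-enriched replicates. Both were higher in enterocyte-enriched than in Lgr5-enriched cells, by 3.43 (limma adjusted p = 0.000373) and 3.68 (limma adjusted p = 0.000179) in log2. Both were also higher in goblet-enriched than in Lgr5-enriched cells, by 2.55 (limma adjusted p = 0.00238) and 3.21 (limma adjusted p = 0.000215), where Vil1 was not called. Villin made up 51.4 ± 2.45% of the family's TPM in enterocyte-enriched, 48.5 ± 6.00% in goblet-enriched and 65.4 ± 2.07% in Lgr5-enriched cells. Svil (supervillin) was lower in enterocyte-enriched than in Lgr5-enriched cells by -1.94 in log2 (limma adjusted p = 0.000392), at 0.390 to 0.821 TPM against 3.67 to 7.16 TPM.

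In the Eps8 family 1 of 4 members, Eps8l2, was called in enterocyte-enriched against Lgr5-enriched cells, where 49.6% of all tested genes were called in either direction. With the replicate block 2 of 4, Eps8l2 and Eps8l3, were called, where 7891 of all 12888 tested genes were called. Eps8l2 had 206, 163 and 132 TPM in enterocyte-enriched, 43.3, 66.6 and 64.6 TPM in goblet-enriched and 31.1, 57.1 and 51.1 TPM in Lgr5-enriched replicates, and its log2 fold change was 1.85 (limma adjusted p = 0.000647) against Lgr5-enriched and 1.51 (limma adjusted p = 0.00198) against goblet-enriched cells. Eps8l3 was the most abundant, with 49.7 ± 8.05% of the family's TPM in enterocyte-enriched, 56.6 ± 4.21% in goblet-enriched and 61.6 ± 2.58% in Lgr5-enriched cells. Its log2 fold change was 0.36 against Lgr5-enriched (limma adjusted p = 0.135, and 0.0198 with the replicate block) and 0.40 against goblet-enriched cells (limma adjusted p = 0.102, and 0.0130 with the block). Median-of-ratios scaling also called it, at 0.76 against Lgr5-enriched (limma adjusted p = 0.00846) and 0.58 against goblet-enriched cells (limma adjusted p = 0.0275). In the MAL family, Mal had 31.6, 7.98 and 9.97 TPM in enterocyte-enriched, 0, 0.0682 and 0.697 TPM in goblet-enriched and 1.14, 0.149 and 0.575 TPM in Lgr5-enriched replicates, and was higher in enterocyte-enriched than in Lgr5-enriched cells (3.23, limma adjusted p = 0.000723). Cmtm8 had the reverse of the Mall pattern in goblet-enriched cells, with 36.3, 43.6 and 47.3 TPM there, against 0.63, 2.13 and 2.33 TPM in Lgr5-enriched replicates (4.07, limma adjusted p = 2.95e-05).

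**Figure D4:**
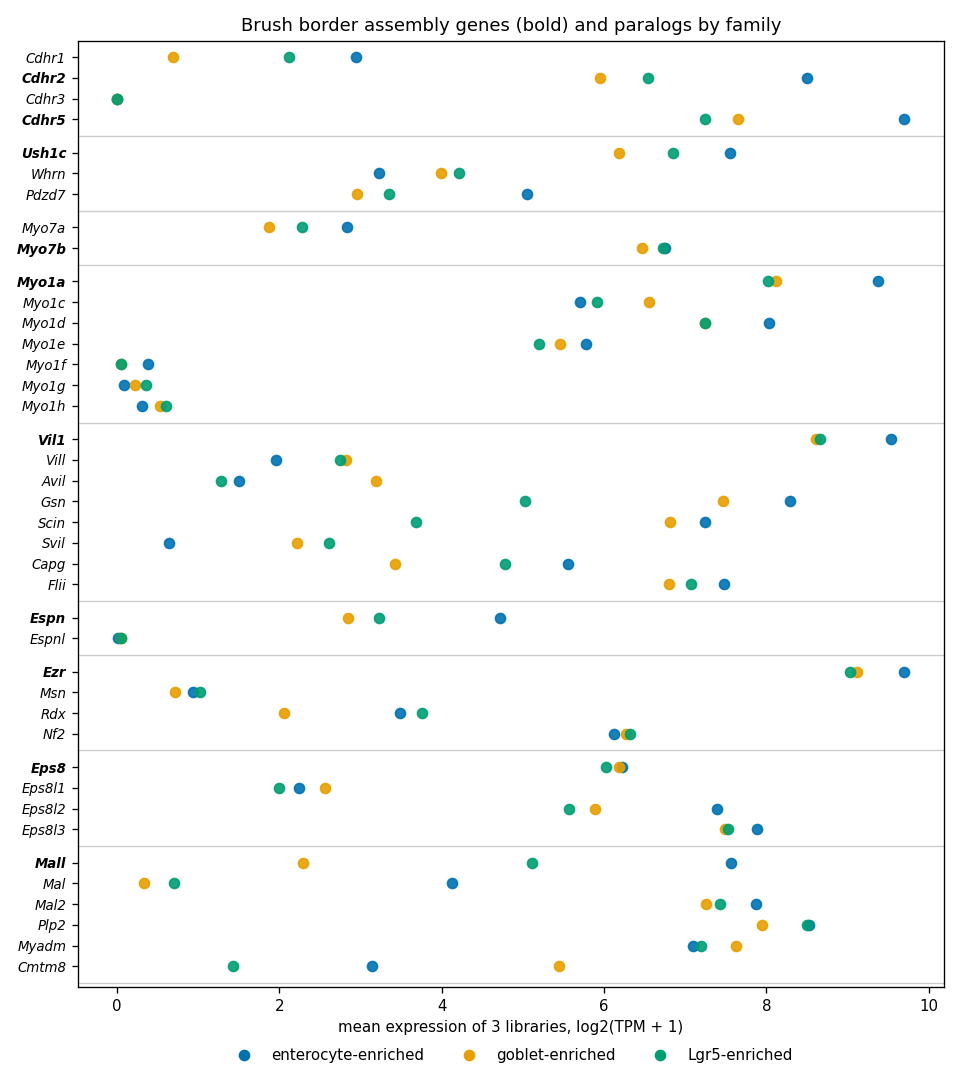
Mean expression over 3 libraries, as log2(TPM + 1) on the x axis, of the brush border assembly genes (bold) and paralogs, grouped by family, with colours for the population. Ezr, Myo7b and Espn are the highest of their families in all 3 populations, and Gsn and Scin lie far lower in Lgr5-enriched than in the other populations.

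The tip link complex has a counterpart in hair cells, and 11 genes of it were looked up. Cdh23 and Pcdh15 were at most 0.0085 TPM in any library, and Ush1g and Clrn1 were listed at 0 in all 9. Of the 11 genes 4 passed the filter on low values: Myo7a, Whrn, Pdzd7 and Triobp. Pdzd7, a paralog of harmonin, had 21.9, 44.8 and 29.3 TPM in enterocyte-enriched, 5.80, 8.11 and 6.30 TPM in goblet-enriched and 5.64, 13.3 and 8.50 TPM in Lgr5-enriched replicates. It was higher in enterocyte-enriched than in Lgr5-enriched cells by 1.71 in log2 (limma adjusted p = 0.00235). Whrn (whirlin), the other paralog, had 5.10, 11.0 and 8.94 TPM in enterocyte-enriched, 10.4, 20.0 and 14.1 TPM in goblet-enriched and 12.9, 21.0 and 18.8 TPM in Lgr5-enriched replicates. Its difference from Lgr5-enriched cells was -1.02 (limma adjusted p = 0.0235), a call that ended without enterocyte-enriched replicate 1 (limma adjusted p = 0.0783), Lgr5-enriched replicate 2 (0.0761) or replicate 3 (0.0718), and under median-of-ratios scaling (0.0979) or quantile normalization (0.129).

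Lists of other brush border genes were counted to set the 10 in their surroundings. The 7 lists of structural, trafficking and enzyme genes held 76 genes outside the 10, of which 68 were tested. In enterocyte-enriched against Lgr5-enriched cells 22 of the 68 were higher and 9 lower, with a median log2 fold change of 0.19, against 12% higher, 37.6% lower and a median of -0.35 over all genes. Median-of-ratios scaling gave 34 higher and 6 lower, against 2962 higher and 2568 lower of all 12888 tested genes. Against goblet-enriched cells 33 were higher and 10 lower, with a median of 0.55, against 15.9% higher, 28.2% lower and a median of -0.20. In goblet-enriched against Lgr5-enriched cells 5 were higher and 19 lower, with a median of -0.31, against 10.7% higher, 23.6% lower and a median of -0.26. Median-of-ratios scaling gave 6 higher and 13 lower there, against 1843 higher and 1555 lower of all 12888 tested genes. The 19 lower on TPM became 10 without Lgr5-enriched replicate 3 and 12 without Lgr5-enriched replicate 2. 

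Among 10 tested actin bundling and tip factors, 3 were higher and 1 lower in enterocyte-enriched than in Lgr5-enriched cells, and 6 were not called, against 12% higher and 37.6% lower over all tested genes. The replicate block, which adds Pls1 and Eps8l3, gave 5 higher and 1 lower, against 15.9% and 45.3% over all genes. Median-of-ratios scaling gave 6 higher and 1 lower, against 2962 and 2568 of all 12888 tested genes. Higher were Eps8l2, described above, Baiap2l1 (0.90, limma adjusted p = 0.00306), an inverse BAR domain protein that binds Eps8, and Capzb (0.48, limma adjusted p = 0.0148), a subunit of the actin capping protein. Baiap2l2, a microvillar tip protein of the same inverse BAR family, was lower, with 44.9, 85.4 and 103 TPM in enterocyte-enriched, 99.4, 162 and 149 TPM in goblet-enriched and 162, 223 and 222 TPM in Lgr5-enriched replicates (-1.43, limma adjusted p = 0.0044). Pls1 (plastin 1), the third core bundling protein, had 247, 122 and 129.8 TPM in enterocyte-enriched, 118, 67.0 and 76.6 TPM in goblet-enriched and 136, 84.1 and 102 TPM in Lgr5-enriched replicates and was not called against Lgr5-enriched cells (0.58, limma adjusted p = 0.149). With the replicate block it was called (limma adjusted p = 0.00297), as it was after median-of-ratios scaling (0.98, limma adjusted p = 0.0434), and it is named here after its values were seen. Of 8 tested linkers, scaffolds and kinases of the ezrin family, 2 were higher and 2 lower, against the same 12% and 37.6%. Higher were Slc9a3r1 (1.01, limma adjusted p = 0.00146), the PDZ scaffold that binds ezrin, and the ezrin kinase gene Stk10 (2.61, limma adjusted p = 0.0012), at 26.9, 8.37 and 8.59 TPM in enterocyte-enriched against 0.963, 1.38 and 1.36 TPM in Lgr5-enriched replicates. Lower were the kinase genes Stk26 (-1.51, limma adjusted p = 0.00558) and Slk (-0.77, limma adjusted p = 0.00962); the Slk call ended under median-of-ratios scaling (-0.37, limma adjusted p = 0.136).

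Of 9 tested brush border and terminal web myosins 3 were higher and 1 was lower in enterocyte-enriched than in Lgr5-enriched cells, where 12% of all tested genes were higher and 37.6% lower. Myh14, a nonmuscle myosin II heavy chain of the terminal web, had 485, 453 and 339 TPM in enterocyte-enriched, 83.9, 113 and 97.3 TPM in goblet-enriched and 93.4, 183 and 129.6 TPM in Lgr5-enriched replicates (1.68 against Lgr5-enriched, limma adjusted p = 0.000673). Myo1d was higher as given above, and Myo1e was higher by 0.57 (limma adjusted p = 0.0395). The Myo1e call ended without enterocyte-enriched replicate 1 (0.134) or replicate 2 (0.0593), without Lgr5-enriched replicate 1 (0.107) or replicate 3 (0.0967), and without the filter on low values (0.0552), all as limma adjusted p. Of 15 terminal web genes 6 were higher and 2 lower, against the same shares of all genes. The keratin genes Krt20 (5.76, limma adjusted p = 0.000701), Krt19 (1.52, limma adjusted p = 0.000611) and Krt8 (1.43, limma adjusted p = 0.00244) were the highest by fold, and Krt20 is also 1 of the colonocyte markers. Actn1, the actin crosslinker alpha-actinin 1 (-1.54, limma adjusted p = 0.000537), and Add3, an adducin of the spectrin network (-0.78, limma adjusted p = 0.00597), were lower. The Krt8 call ended under quantile normalization (limma adjusted p = 0.101) and the Add3 call under median-of-ratios scaling (limma adjusted p = 0.0978).

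Of 15 apical trafficking and polarity genes 2 were higher and 1 lower in enterocyte-enriched than in Lgr5-enriched cells, and 12 were not called, where 12% of all tested genes were higher and 37.6% lower. With the replicate block 4 were higher and 2 lower, where 15.9% of all genes were higher and 45.3% lower. Median-of-ratios scaling gave 7 higher and 0 lower, where 2962 of all 12888 tested genes were higher and 2568 lower. Crb3, the apical polarity protein Crumbs 3, was higher by 0.85 (limma adjusted p = 0.00178). Rab11a, a GTPase of apical recycling endosomes, was higher by 0.59 (limma adjusted p = 0.0218), a call that ended without enterocyte-enriched replicate 1 (0.0742), Lgr5-enriched replicate 2 (0.0626) or Lgr5-enriched replicate 3 (0.0762). Prkci, the atypical protein kinase C iota, was lower by -0.82 (limma adjusted p = 0.00268) and was not called after median-of-ratios scaling (-0.43, limma adjusted p = 0.0694). Of 14 microvillar membrane enzymes 9 were tested, and 4 were higher and 2 lower, against the same shares of all genes. The meprin subunit genes Mep1b (3.20, limma adjusted p = 0.000274) and Mep1a (2.91, limma adjusted p = 0.00657) were the highest by fold, and Mep1a gave 2.21 without Lgr5-enriched replicate 1. Alpi, intestinal alkaline phosphatase, was called higher at 10.5, 4.40 and 3.35 TPM in enterocyte-enriched libraries, against 0.328, 0.265 and 0 TPM in Lgr5-enriched libraries, and was listed at 0 in all goblet-enriched libraries. Dpp4, dipeptidyl peptidase 4, was lower, with 13.8, 22.4 and 25.0 TPM in enterocyte-enriched, 39.9, 39.9 and 36.1 TPM in goblet-enriched and 42.0, 48.8 and 53.5 TPM in Lgr5-enriched replicates (-1.23, limma adjusted p = 0.00133). Treh, trehalase, was also called lower, at 0.0851 to 0.305 TPM against 1.08 to 1.30 TPM in Lgr5-enriched libraries. Its reads numbered 1 to 4 in enterocyte-enriched against 11 to 23 in Lgr5-enriched libraries, and the call ended under quantile normalization (limma adjusted p = 0.051).

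**Figure D5:**
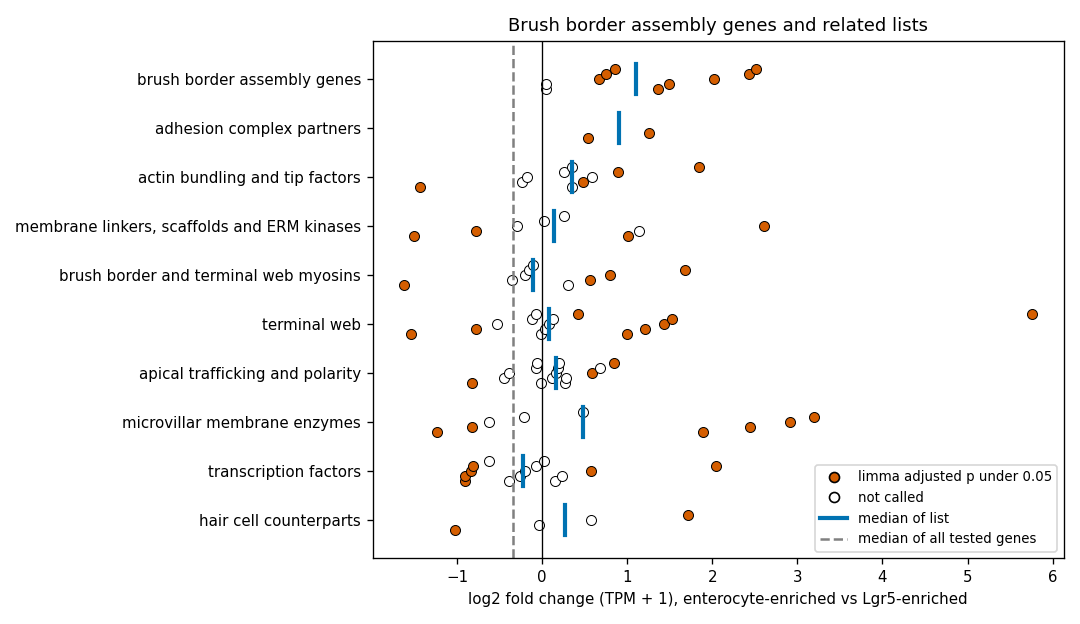
Log2 fold changes on the log2(TPM + 1) scale (x axis) in enterocyte-enriched against Lgr5-enriched cells for each tested gene of the 10 assembly genes and of the related lists (rows); filled points have a limma adjusted p below 0.05, blue bars are list medians and the dashed line is the median of all tested genes. The assembly genes have no point below 0 and a median of 1.11, whereas 6 of the 7 lists of other brush border genes hold genes called lower.

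Transcription factors known to act on brush border genes were listed as a separate group. Of 14 tested, 2 were higher and 4 lower in enterocyte-enriched than in Lgr5-enriched cells, close to the 12% higher and 37.6% lower of all tested genes. The median log2 fold change was -0.23 over the 14 and -0.35 over all tested genes. Klf4, a factor of differentiated epithelium, had 1089, 916 and 875 TPM in enterocyte-enriched, 524, 576 and 546 TPM in goblet-enriched and 224, 249.7 and 224 TPM in Lgr5-enriched replicates, and was higher by 2.04 (limma adjusted p = 3.89e-05). Elf3, an epithelial ETS factor, was higher by 0.57 (limma adjusted p = 0.0139), a call that ended under quantile normalization (limma adjusted p = 0.103). Mkl2, a coactivator of serum response factor, was lower by -0.91 (limma adjusted p = 0.00138), Smad4 by -0.90 (limma adjusted p = 0.000395) and Gata6 by -0.84 (limma adjusted p = 0.00334). Hnf4a, a nuclear receptor that binds many enterocyte genes, is named after its values were seen. It had 635, 488 and 479 TPM in enterocyte-enriched, 229, 232 and 224 TPM in goblet-enriched and 380.0, 516 and 472 TPM in Lgr5-enriched replicates. It was higher in enterocyte-enriched than in goblet-enriched cells by 1.21 (limma adjusted p = 0.000372) and was not called against Lgr5-enriched cells (0.23, limma adjusted p = 0.251), although median-of-ratios scaling called it (0.63, limma adjusted p = 0.0125). Of the 14 tested factors 6 were higher and 0 lower in enterocyte-enriched than in goblet-enriched cells, against 15.9% and 28.2% of all tested genes. In goblet-enriched against Lgr5-enriched cells 1 was higher and 6 were lower, against 10.7% and 23.6%.

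Across the 9 libraries, which fall into 3 populations and share depth and replicate effects, the tested genes outside the 10 whose log2(TPM + 1) lay closest to the mean standardized profile of the 10 were Myo18a (Pearson r = 0.997), Wdtc1 (0.992), Trappc10 (0.992), Tcf7l2 (0.990), Zbtb7b (0.990), Misp (0.990), Nol4l (0.988) and C77080 (0.987). These r values describe likeness of pattern and carry no test. Myo18a was at 104 ± 16.5 TPM in enterocyte-enriched, 42.4 ± 4.91 TPM in goblet-enriched and 50.5 ± 11.8 TPM in Lgr5-enriched cells, and Misp at 696 ± 161, 209 ± 31.8 and 257 ± 44.5 TPM in the same order. Among the 10 themselves, r of each with the mean of the other 9 was 0.98 for Cdhr2, 0.96 for Vil1, 0.93 for Ush1c, 0.92 for Espn, 0.91 for Cdhr5 and 0.89 for Myo1a. It was 0.82 for Mall, 0.74 for Ezr, 0.61 for Myo7b and -0.08 for Eps8.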

How the data were processed

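RNA was read from 9 poly-A libraries, 3 per sorted population; the kit marks strand, per the labels' protocols, and the series text names 3 independent mice. The deposited values are the authors' log2(TPM) at 0 and above and TPM - 1 below 0: back-transformed, each library sums to 1000000. The submitters' processing notes list Cufflinks, without a version, and mm10. The aligner, the annotation and whether strand was used are not given in the sources at hand. Since every library has the same total, abundant transcripts lower the values of all others.

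Whole reads could be recovered for 18386 of 18396 genes above 0 (99.95%, within 1e-06 of a whole number, for lengths of up to 20000 bases), as the smallest numbers that the values allow. The test was limma 3.58.1 (R 4.3.3) with a mean-variance trend on log2(TPM + 1), fitted to all 9 libraries with 1 mean per population, 6 residual and 3.21 prior degrees of freedom. A gene was tested if 3 or more libraries reached 1 TPM, which left out 5508 genes above 0. Tests were two-sided, adjusted by Benjamini-Hochberg over the 12888 genes of a comparison, with a threshold of 0.05. The pseudocount of 1 understates fold changes of low genes. The fit was tested on simulated data, and 0 sample columns were unused. Gene positions are from a GENCODE annotation of mm10.

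Libraries with the same replicate number deviated together from their population means: r was 0.348, 0.488 and 0.235 for enterocyte-enriched with Lgr5-enriched, 0.279, 0.441 and 0.194 for enterocyte-enriched with goblet-enriched and 0.601, 0.525 and 0.404 for goblet-enriched with Lgr5-enriched libraries. The main fit did not use the replicate numbers, so its p-values are unpaired. The replicate block, an alternative, took libraries of the same number as sets on these values. The sex-linked genes of enterocyte-enriched replicate 1 (Xist at 0.13 TPM, 4 Y-linked genes at 139 TPM) differed from those of the other replicate 1 libraries. Xist stood at 110.3 TPM in goblet-enriched and 150 TPM in Lgr5-enriched replicate 1. The 3 libraries numbered 1 therefore cannot all come from 1 animal, and every result with the replicate block carries that limit. The p-values reflect variation among these libraries. The 10 genes, the lists and the tests were chosen with earlier results of these data known. Named are the 10 genes, paralogs of them, the 8 genes of most similar pattern and, of each list, up to 3 called genes per direction with the largest fold in enterocyte-enriched against Lgr5-enriched cells; a few genes that these rules name are not reported here. Alternatives were other scalings, pseudocounts of 0.1 and 5, other filters, the 6 libraries compared, a replicate block, array weights, replicates 2 and 3 alone, and leaving out each library.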

Additional observations from a re-analysis of the deposited data

How the results depend on the processing

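Over all alternatives, 519 of 570 values of the 10 genes' fold changes kept direction and side of the threshold, 11 kept direction and lost the call, 19 gained it and 21 changed sign; the cause of these changes was not tested. With the replicate block, 2 of the 10 genes were called between goblet-enriched and Lgr5-enriched cells, Mall and Ush1c, where 6357 of all 12888 tested genes were called. Ezr was called with the block in enterocyte-enriched against goblet-enriched cells, and the block changed no other call of the 10. In goblet-enriched against Lgr5-enriched cells, 4 of the 10 were called with array weights, which called 7611 of all 12888 tested genes. With replicates 2 and 3 alone 4 of the 10 were called, against 5592 of all 12512 genes tested then. In both settings the 4 were Cdhr2, Ush1c, Myo7b and Mall. Leaving out a library gave 6 to 8, 7 to 8 and 1 to 3 of the 10 genes in the 3 comparisons, and 5055 to 6909, 4493 to 5897 and 2646 to 4597 of all genes, the lowest of the last without Lgr5-enriched replicate 3. Sign changes were limited to differences that were not called. In enterocyte-enriched against Lgr5-enriched cells Myo7b was -0.12 with array weights, -0.14 with replicates 2 and 3 alone and -0.11 to 0.13 with a library left out; Eps8 was -0.21, -0.30 and -0.41 to 0.34. Against goblet-enriched cells Eps8 was 0.080 after median-of-ratios scaling and -0.56 to 0.19 with a library left out. In goblet-enriched against Lgr5-enriched cells Vil1 was 0.17 after median-of-ratios scaling, and Myo1a was -0.10 with array weights and -0.16 with replicates 2 and 3 alone. With a library left out, that comparison gave -0.14 to 0.0040 for Vil1, -0.043 to 0.21 for Myo1a, -0.89 to 0.039 for Espn, -0.022 to 0.25 for Eps8 and -0.064 to 0.29 for Ezr. Depth limits values below about 1 TPM, such as Mall in goblet-enriched replicate 1.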
